A study of Homo sapiens with 48 samples.

Results

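The comparison described here is the interaction between SF3B1 knockdown and RAS activation, which asks for which genes and exons the effect of losing SF3B1 depends on whether RAS is active. It was computed as the siSF3B1 effect in 4OHT minus the siSF3B1 effect in DMSO, each taken against non-targeting siRNA (siNT) of the same treatment, over 32 of the 48 libraries of the series, 8 in each of 4 groups. All 4 groups were IMR90 human lung fibroblasts carrying ER:RAS G12V, an oncogenic RAS whose activity depends on 4-hydroxytamoxifen (4OHT). The promoter of the fusion is not given in the sources used here. Cells received 4OHT or the solvent DMSO for 6 days, were transfected with siNT or siSF3B1, and were collected after another 2 days in 0.5% FBS. Each group held 2 siRNAs (siNT1 and siNT2, or siSF3B1-13 and siSF3B1-16) with 4 libraries each. The study's methods describe its cell culture replicates in general as independent experiments but give fewer replicates for this one than the labels do, and no label ties a library to a culture, so p-values measure the spread between these libraries, part of which may be technical. The labels of 4 of the 4OHT siNT libraries name both non-targeting siRNAs, and they were taken as siNT2 by their titles. RAS activity and 4OHT itself cannot be told apart in these groups. Both knockdown effects and the 4OHT effect in siNT cells share the siNT libraries.

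SF3B1 is the largest subunit of the SF3b complex of the U2 small nuclear ribonucleoprotein (U2 snRNP). This particle binds the branch point upstream of a 3′ splice site and so commits the following exon to splicing, and when it is limiting, exons are skipped and introns are left in. Activated RAS drives fibroblasts out of the cell cycle into senescence, a stable arrest in which p53 targets, secreted cytokines and proteases change together while genes of replication and mitosis are lowered. A gene was called when its interaction had a Benjamini-Hochberg adjusted p under 0.05 in edgeR's quasi-likelihood test over all genes tested. Called genes were then sorted by their knockdown effects. In synergy the effect in 4OHT was called and was the larger, in antagonism the effect in DMSO was called and was the larger, and in reversal both effects were called with opposite sign.

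The knockdown of the target itself was not called different between treatments. SF3B1 (ENSG00000115524) had a lowest, median and highest level of 311, 362 and 396 CPM (counts scaled to the TMM-normalised library size) in DMSO siNT and 30.4, 32.96 and 35.2 CPM in DMSO siSF3B1. In 4OHT it had 315, 327 and 340 CPM with siNT and 25.3, 26.5 and 30.7 CPM with siSF3B1. The siSF3B1 libraries lay far below the siNT libraries in both treatments, and those of DMSO and 4OHT overlapped narrowly. The interaction was −0.14 (SE 0.11, adjusted p = 0.343) on the log2 scale. With the model restricted to the 4 groups it had an adjusted p of 0.0386, so a slightly deeper knockdown in 4OHT cannot be set aside. SUPT5H, an elongation factor, and CHD4, a chromatin remodeller, were also not called (−0.12, adjusted p = 0.551, and 0.08, adjusted p = 0.387), although with 1 group per siRNA CHD4 was called.

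Totals ran from 31467221 to 52734636 counts per library, and no library of the 4 groups stood apart, with a median correlation with its group of 0.986 to 0.998 on log2 CPM. Fibroblast markers summed to between 49061 and 60547 CPM in the DMSO libraries and between 14847 and 15907 CPM in the 4OHT libraries, and all 10 were detected in every group. The 8 epithelial markers summed to at most 13.6 CPM and the 7 leukocyte markers to at most 0.643 CPM in any library, and none of either list passed the count filter. Of the endothelial markers only TEK passed, and it was itself a reversal (interaction 1.04). In bulk RNA, fewer cells with a transcript and less of it per cell cannot be told apart. The counting is not stated to use strand, so values of genes that overlap a neighbour are uncertain; these include LYPD1, SLC16A6, ACACB, GPSM2, AMIGO2, CEMIP, TYMS, PARP9, POLH, DDIT3, DDX42, SNRPA1 and CCNA2 among those named here.

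The effect of SF3B1 loss on gene level depended on treatment for a large share of genes. The interaction was called for 3781 of 9991 genes tested (37.8%), of which 1793 were higher (17.9% of genes tested) and 1988 lower (19.9%) in 4OHT relative to DMSO. Most interactions were modest, with a median size of 0.42 on the log2 scale among called genes and 0.20 among all. A difference of at least 1.5-fold between the effects was reached by 955 of the called genes and one of at least 2-fold by 223. Synergy held 2258 genes (22.6%), antagonism 1145 (11.5%) and reversal 356 (3.56%), and 22 genes (0.22%) were left unsorted. The knockdown effects used for the sorting were themselves called in 72.7% of genes in DMSO and in 77.0% in 4OHT. With siNT1 as the only control 2352 genes were called, and 2338 of them were among the 3781 with the same sign. Restricting the model to the 4 groups raised the number to 5607, with 3780 of the 3781 among them. On the linear CPM scale the difference of differences had the same sign as on the log2 scale for 3504 of the 3781 genes, and for all 356 reversals.

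Synergy with lower expression covered 1213 genes, whose median knockdown effect was −0.33 in DMSO and −0.78 in 4OHT. BIRC3, the inhibitor of apoptosis cIAP2 and a target of NF-κB, had the largest such interaction among the genes that the naming rule admitted. Its lowest, median and highest level was 1.57, 1.79 and 2.05 CPM in DMSO siNT and 1.26, 1.60 and 2.73 CPM in DMSO siSF3B1, against 24.2, 31.5 and 35.4 CPM in 4OHT siNT and 3.42, 5.18 and 6.29 CPM in 4OHT siSF3B1. The knockdown and control libraries overlapped in DMSO and were apart in 4OHT. The interaction was −2.61 (SE 0.24, adjusted p = 2.60e-12).

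OSBPL5, a lipid transfer protein, was lowered in both treatments, and further in 4OHT. It had a lowest, median and highest level of 49.2, 55.8 and 58.4 CPM in DMSO siNT, 28, 30.1 and 30.8 in DMSO siSF3B1, 29.4, 32.6 and 34.4 in 4OHT siNT and 4.22, 4.95 and 5.52 in 4OHT siSF3B1. No group of knockdown libraries overlapped its control. The interaction was −1.79 (SE 0.096, adjusted p = 5.67e-20), between −1.86 and −1.73 for the 4 pairings of 1 siSF3B1 with 1 siNT. KLHL29, a kelch-like protein, fell by 0.20 in DMSO and fell by 2.39 in 4OHT on the log2 scale. CLDN11, a claudin of tight junctions, fell by 0.60 in DMSO and fell by 2.42 in 4OHT. IGFBP3, which binds insulin-like growth factors, had an effect of 0.31 in DMSO (adjusted p = 0.103) and fell by 1.42 in 4OHT. SLC25A42, a mitochondrial carrier for coenzyme A, fell by 1.18 in DMSO and fell by 2.68 in 4OHT. CLDN11 stood at a median of 722 CPM in DMSO siNT and 32.7 CPM in 4OHT siNT, and its difference of differences was positive on the linear CPM scale.

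Synergy with higher expression covered 1045 genes, with median effects of 0.21 in DMSO and 0.66 in 4OHT. It included NR4A1 and NR4A2, orphan nuclear receptors known as immediate early genes. NR4A1 had a lowest, median and highest level of 3.71, 4.83 and 5.57 CPM in DMSO siNT, 3.83, 4.65 and 6.24 in DMSO siSF3B1, 3.48, 3.68 and 4.001 in 4OHT siNT and 9.89, 17.6 and 27.3 in 4OHT siSF3B1. All 8 libraries of 4OHT siSF3B1 lay above the other 3 groups, and the siRNAs differed there, with 23.1 to 27.3 CPM for siSF3B1-13 and 9.89 to 11.96 CPM for siSF3B1-16. The interaction was 2.27 (SE 0.23, adjusted p = 3.82e-11) for NR4A1 and 2.27 (SE 0.24, adjusted p = 1.27e-10) for NR4A2.

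ABHD17C, an enzyme that removes palmitate from proteins and is listed as FAM108C1, had the largest interaction among the genes named in this class. Its median was 18.9 CPM in DMSO siNT, 22.2 in DMSO siSF3B1, 8.86 in 4OHT siNT and 53.2 in 4OHT siSF3B1, with an interaction of 2.37 (SE 0.15, adjusted p = 2.90e-17). PLPPR4, a membrane protein related to lipid phosphatases and listed as RP4-788L13.1, had medians of 21.6 and 103 CPM in 4OHT (siNT and siSF3B1), against 24.5 and 24.9 CPM in DMSO. TCF21, a transcription factor of mesenchymal cells, rose by 0.53 in DMSO and rose by 2.84 in 4OHT, and its control level was a median of 36.5 CPM in DMSO and 6.21 CPM in 4OHT. ADAMTS5, a protease that cleaves aggrecan, rose by 0.57 in DMSO and rose by 2.46 in 4OHT. Over the 4 pairings of siRNAs the interaction ran from 1.99 to 2.65 for ABHD17C, from 1.68 to 3.06 for PLPPR4, from 1.68 to 2.83 for TCF21 and from 1.25 to 2.65 for ADAMTS5. In DMSO the siRNAs moved PLPPR4 to opposite sides of control.

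Antagonism with a lower interaction covered 597 genes, which had a median effect of 0.51 in DMSO and 0.15 in 4OHT. LYPD1, a membrane-anchored protein of the LY6 family, had a lowest, median and highest level of 37.3, 38.4 and 38.95 CPM in DMSO siNT and 96.1, 117 and 142 CPM in DMSO siSF3B1. In 4OHT it had 30.2, 36.3 and 39.8 CPM with siNT and 26.4, 34.1 and 39.9 CPM with siSF3B1. The groups were apart in DMSO and overlapped in 4OHT. The interaction was −1.70 (SE 0.18, adjusted p = 8.18e-11).

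HSPA4L, a heat shock protein, rose by 1.24 in DMSO and had an effect of −0.19 in 4OHT (adjusted p = 0.138), with medians of 9.80 and 22.6 CPM in DMSO. Several genes of this class were far higher in 4OHT than in DMSO before any knockdown. ANGPTL4, an inhibitor of lipoprotein lipase, had medians of 3.85 and 12.6 CPM in DMSO (siNT and siSF3B1) and 106 and 119 CPM in 4OHT, with an interaction of −1.72 (SE 0.29, adjusted p = 5.59e-06). SLC16A6, of the monocarboxylate transporter family, had medians of 7.68, 21.6, 445 and 507 CPM in the same order, but its siRNAs differed widely. In DMSO it had 33.9 to 41.9 CPM with siSF3B1-13 and 7.35 to 9.25 CPM with siSF3B1-16, of which only the former was apart from control (6.10 to 8.35 CPM). In 4OHT siSF3B1-13 lay above control (655 to 686 against 409 to 472 CPM) and siSF3B1-16 below it (334 to 358 CPM), and the interaction ran from −1.89 to −0.39 over the 4 pairings. The serpins SERPINB2 and SERPINB7 had interactions of −1.38 and −1.36. For ANGPTL4, SLC16A6, SERPINB2 and SERPINB7 the difference of differences was positive on the linear CPM scale, so that their class describes ratios and not added transcripts.

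Antagonism with a higher interaction covered 548 genes, with a median effect of −0.65 in DMSO and −0.20 in 4OHT. ACACB, the acetyl-CoA carboxylase of the mitochondrial surface, had a lowest, median and highest level of 18.3, 19.5 and 21.8 CPM in DMSO siNT, 4.50, 5.21 and 5.84 in DMSO siSF3B1, 27.1, 28.8 and 31.03 in 4OHT siNT and 20.2, 23.7 and 25.7 in 4OHT siSF3B1. The knockdown libraries lay below their controls in both treatments, by a wide margin in DMSO and a narrow one in 4OHT. The interaction was 1.64 (SE 0.075, adjusted p = 1.65e-22).

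The other genes named in this class were lower in 4OHT than in DMSO before any knockdown. FAIM2, an inhibitor of Fas signalling, had medians of 17.2 and 3.53 CPM in DMSO and of 1.48 and 1.09 CPM in 4OHT. GPSM2, which orients the mitotic spindle, fell by 1.85 in DMSO and fell by 0.47 in 4OHT. PRC1, which bundles microtubules for cytokinesis, fell by 1.83 in DMSO and fell by 0.47 in 4OHT. SDK1, a cell adhesion molecule, fell by 1.81 in DMSO and fell by 0.44 in 4OHT. TMTC2, a protein of the endoplasmic reticulum, fell by 1.51 in DMSO and had an effect of −0.19 in 4OHT (adjusted p = 0.113).

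Reversal covered 191 genes that fell in DMSO and rose in 4OHT, and 165 that did the opposite. PTGES, the inducible prostaglandin E synthase, had the largest interaction among the genes that the naming rule admitted. Its lowest, median and highest level was 6.98, 8.32 and 8.68 CPM in DMSO siNT, 3.49, 4.46 and 4.80 in DMSO siSF3B1, 4.63, 5.36 and 6.28 in 4OHT siNT and 14.4, 21.3 and 30.8 in 4OHT siSF3B1. All knockdown libraries lay below control in DMSO and above control in 4OHT. The interaction was 2.94 (SE 0.22, adjusted p = 4.93e-15).

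CEMIP, listed as KIAA1199, which binds and depolymerises hyaluronan, had medians of 91.8 and 36.7 CPM in DMSO (siNT and siSF3B1) and of 11.98 and 35.5 CPM in 4OHT. DCHS1, a large protocadherin, had 91.7 and 51.5 CPM in DMSO and 8.24 and 30.1 CPM in 4OHT. In both genes the control level was lower in 4OHT, and the knockdown medians of the treatments lay closer to each other than the control medians did. In the other direction, HHEX, a homeobox factor, had a lowest, median and highest level of 11.5, 12.98 and 14.6 CPM in DMSO siNT, 28.7, 31.9 and 34.3 in DMSO siSF3B1, 2.67, 2.92 and 3.49 in 4OHT siNT and 1.48, 1.88 and 2.52 in 4OHT siSF3B1. No pair of groups overlapped, and the interaction was −1.90 (SE 0.13, adjusted p = 2.03e-16). AMIGO2, a membrane adhesion protein, rose by 1.17 in DMSO and fell by 0.49 in 4OHT, and ZNF469, a zinc finger protein, rose by 0.32 in DMSO and fell by 1.26 in 4OHT.

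Gene lists were read against all genes tested, in which 37.8% were called and the median interaction was −0.00617. Of 39 mitotic genes listed, only 19 passed the filter on total counts. Of these 12 were called, and all 12 were higher, with a median interaction of 0.57 over the 19. A member could pass the filter through its DMSO libraries alone. How far this choice of members favours higher interactions was not tested. Of the 12, 9 were antagonistic, 2 synergistic and 1 was a reversal. TOP2A, the topoisomerase that untangles chromosomes, had medians of 46.9 and 5.66 CPM in DMSO and of 9.38 and 2.13 CPM in 4OHT (siNT and siSF3B1), with an interaction of 0.97 (SE 0.26, adjusted p = 0.00247). CDC20, an activator of the anaphase-promoting complex, and CCNA2, cyclin A2, had interactions of 1.15 and 0.89. CENPF, a kinetochore protein, had a lowest, median and highest level of 18.5, 20.6 and 31.6 CPM in DMSO siNT, 8.24, 11.98 and 16.9 in DMSO siSF3B1, 4.53, 5.37 and 5.96 in 4OHT siNT and 12.2, 13.6 and 15.2 in 4OHT siSF3B1. It fell in DMSO and rose in 4OHT, with the libraries of knockdown and control apart in both (interaction 2.27, SE 0.23, adjusted p = 5.25e-11). Mitotic genes were low in 4OHT before knockdown, with a median 4OHT effect of −2.07 in siNT cells over the 19.

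Among replication genes 22 of 40 listed passed the same filter. Of these 9 were called (40.9%, against 37.8% of all genes), 6 higher and 3 lower, with a median interaction of 0.19. MCM2, a subunit of the replicative helicase, rose by 0.26 in DMSO and rose by 0.87 in 4OHT. GINS4, of the same helicase, fell by 0.98 in DMSO and fell by 0.28 in 4OHT. TYMS, thymidylate synthase, had an effect of 0.02 in DMSO (adjusted p = 0.822) and fell by 0.73 in 4OHT.

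Targets of p53 were called in 10 of 27 cases, 9 lower and 1 higher, and 8 of the 10 were antagonistic. Over the 27 the median knockdown effect was 0.59 in DMSO and 0.41 in 4OHT. CDKN1A, the cell cycle inhibitor p21, had a lowest, median and highest level of 908, 941 and 1003 CPM in DMSO siNT, 1408, 1616 and 1873 in DMSO siSF3B1, 1595, 1692 and 1798 in 4OHT siNT and 1921, 2051 and 2155 in 4OHT siSF3B1. The knockdown libraries lay above control in each treatment, and the interaction was −0.51 (SE 0.079, adjusted p = 1.02e-06). BTG2, an antiproliferative factor, rose by 0.70 in DMSO and had an effect of 0.01 in 4OHT (adjusted p = 0.946). TIGAR, listed as C12orf5, a regulator of glycolysis, rose by 0.70 in DMSO and had an effect of 0.11 in 4OHT (adjusted p = 0.0581). POLH, a translesion DNA polymerase, was the reversal of the list and rose by 0.36 in DMSO and fell by 0.44 in 4OHT. Its rise in DMSO was seen with siSF3B1-13 (48.5 to 55.7 CPM), whereas siSF3B1-16 (33.6 to 37.5 CPM) overlapped control (32.1 to 36.3 CPM).

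Secretome genes were called in 13 of 30 cases (43.3%, against 37.8% of all genes), 10 lower and 3 higher, with a median interaction of −0.21. Over the 30 the median 4OHT effect in siNT cells was 5.90. Members low in DMSO could therefore pass the filter on total counts through their 4OHT libraries alone. For such members the log2 effect in DMSO rests on low counts, so the count for the list is only a description. IL6, a cytokine named for its values, had a lowest, median and highest level of 102, 115 and 140 CPM in 4OHT siNT and 26.5, 31.9 and 39.6 CPM in 4OHT siSF3B1, against medians of 1.32 and 1.02 CPM in DMSO. It had an effect of −0.44 in DMSO (adjusted p = 0.0660) and fell by 1.85 in 4OHT, and the interaction was −1.41 (SE 0.26, adjusted p = 2.78e-05). HBEGF, a ligand of the EGF receptor, had an effect of 0.05 in DMSO (adjusted p = 0.795) and fell by 1.25 in 4OHT, and CCL2, a monocyte chemokine, fell by 0.54 in DMSO and fell by 1.59 in 4OHT. IL1B, also named for its values, had medians of 0.296 and 0.713 CPM in DMSO and of 3165 and 3955 CPM in 4OHT, so its interaction of −1.07 rested on low DMSO counts and turned sign on the linear scale. IL11, a cytokine of the IL6 family, rose by 0.63 in DMSO and rose by 1.45 in 4OHT. TNFAIP6, a hyaluronan-binding protein, fell by 0.28 in DMSO and rose by 1.66 in 4OHT.

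NF-κB targets and regulators were called in 7 of 15 cases, 4 lower and 3 higher. Besides BIRC3, TNIP1, an inhibitor of the pathway, had an effect of 0.15 in DMSO (adjusted p = 0.0842) and fell by 0.69 in 4OHT. RELB, an NF-κB subunit, fell by 1.29 in DMSO and fell by 0.53 in 4OHT, and its interaction of 0.75 turned sign on the linear scale and was not called with siNT2 alone, with siSF3B1-13 alone or without replicate 2. Genes of ERK output were called in 15 of 27 cases, 7 higher and 8 lower. PHLDA1, a gene with 1 intron, had medians of 736 and 747 CPM in DMSO and of 992 and 1648 CPM in 4OHT (interaction 0.72, SE 0.050, adjusted p = 9.41e-16). FOSL1, a subunit of AP-1, rose by 0.94 in DMSO and had an effect of 0.17 in 4OHT (adjusted p = 0.0967).

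Members of the BCL2 family, which governs mitochondrial apoptosis, were called in 8 of 15 cases, 4 in each direction, with a median interaction of 0.0081 over the 15. BCL2L11, the pro-apoptotic BIM, had medians of 11.3 and 6.20 CPM in DMSO and of 2.63 and 3.82 CPM in 4OHT, a reversal (interaction 1.41, SE 0.20, adjusted p = 2.97e-07). The 4OHT libraries of siSF3B1-13 were above control and those of siSF3B1-16 overlapped it. BMF, also pro-apoptotic, rose by 0.61 in DMSO and rose by 1.53 in 4OHT. BOK, another member, had an effect of −0.12 in DMSO (adjusted p = 0.269) and fell by 0.90 in 4OHT. BCL2A1, an anti-apoptotic member named for its values, was at or near 0 in DMSO (medians of 0.0479 and 0 CPM) and had medians of 12.6 and 26.8 CPM in 4OHT, so no interaction is read from it.

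Genes of endoplasmic reticulum stress and of the ATF4 response were called in 11 of 30 cases (36.7%, near the 37.8% of all genes), 8 higher and 3 lower. Of the 30 tested 8 were synergistic, against 22.6% of all genes tested. Over the 30 the median interaction was 0.039, near that of all genes, so the list as a whole did not stand out. DDIT3, the stress factor CHOP, had a lowest, median and highest level of 17.98, 18.8 and 21.2 CPM in DMSO siNT, 26.2, 31.6 and 41.1 in DMSO siSF3B1, 4.87, 5.31 and 6.41 in 4OHT siNT and 20.2, 27.6 and 33.8 in 4OHT siSF3B1. The knockdown libraries lay above control in both treatments (interaction 1.58, SE 0.19, adjusted p = 2.43e-09). TRIB3, a pseudokinase downstream of ATF4, rose by 0.41 in DMSO and rose by 1.19 in 4OHT. In DMSO siSF3B1-13 lay above control (89.2 to 97.3 CPM) and siSF3B1-16 (58.6 to 64.3 CPM) within it (52.2 to 66.2 CPM), and the interaction was not called with siNT2 alone or with siSF3B1-13 alone. HERPUD1, of the ER degradation machinery, had an effect of 0.10 in DMSO (adjusted p = 0.234) and rose by 0.70 in 4OHT.

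Matrix and contractile genes were called in 16 of 32 cases, 10 higher and 6 lower, but the median interaction over the 32 was −0.085. COL3A1, a chain of fibrillar collagen, had medians of 5876 and 4882 CPM in DMSO and of 596 and 1073 CPM in 4OHT, a reversal (interaction 1.11, SE 0.089, adjusted p = 4.53e-14). COL1A2 was a reversal too (0.62), and TPM1, a tropomyosin, fell by 0.20 in DMSO and fell by 1.03 in 4OHT. Fibroblast markers, several of them also in the matrix list, were called in 7 of 10 cases, 6 higher and 1 lower. Interferon-stimulated genes passed the count filter in 18 of 35 cases. Of these 7 were called (38.9%, against 37.8% of all genes), 2 higher and 5 lower, with a median interaction of 0.0086 over the 18. They were led by PARP9, which fell by 1.02 in DMSO and fell by 2.03 in 4OHT. The interaction of PARP9 turned sign on the linear scale.

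Components of the U2 snRNP and its partners were called in 5 of 21 cases (23.8%), a smaller share than the 37.8% of all genes. All 5 were lower, so the share of tested members called lower was also 23.8%, near the 19.9% of all genes tested. SNRPA1, the A′ protein of the U2 snRNP, had a lowest, median and highest level of 16.3, 18.1 and 20.7 CPM in DMSO siNT, 12.7, 14.2 and 15.2 in DMSO siSF3B1, 52.8, 55.6 and 59.4 in 4OHT siNT and 18.5, 20 and 21.6 in 4OHT siSF3B1. Knockdown lay below control in both treatments without overlap, and the interaction was −1.11 (SE 0.082, adjusted p = 4.29e-15). SF3A3, DDX42, SF3B3 and SF3A1 had interactions of −0.35, −0.33, −0.23 and −0.17, and that of DDX42 turned sign on the linear scale. Cholesterol genes were called in 3 of 22 cases, all lower. Cytosolic ribosomal protein genes were called in 2 of 73 cases, RPL3 (0.32) and RPL10A (0.24). Neither call was stable. That of RPL3 ended under 10 alternatives, among them each siRNA alone, both other count filters and leaving out replicate 1, 2 or 3, and that of RPL10A under 4, with siNT2 alone, with siSF3B1-16 alone, without replicate 1 and with a minimum of 1.5-fold.

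Some other results given for single genes also turned on 1 siRNA or 1 replicate. The called knockdown effects of ABHD17C, KLHL29, ADAMTS5, IL1B, IL11, TNFAIP6 and TPM1 in DMSO, and of FAIM2, GINS4, PRC1 and SDK1 in 4OHT, were apart from control with 1 siSF3B1 siRNA and overlapped it with the other. The interaction of SF3A1 was not called with either siNT alone, with siSF3B1-13 alone, or without replicate 2 or 3. That of the WSB1 gene, described with its exon, was not called with either siNT alone, with siSF3B1-16 alone or without replicate 2. With 1 of the siRNAs alone the calls of BTG2 (siNT1 or siSF3B1-16), IL11 (siNT1), IL6 and CDC20 (siSF3B1-16), and IL1B (siNT2 or siSF3B1-13) ended as well.

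The direction of the interaction went with the number of introns of a gene, which the sorting did not use. Counts of introns came from the canonical transcript of the GENCODE annotation, which matched 9881 of the 9991 genes. Genes with lower synergy had a median of 13 introns and a median span of 44.6 kb, genes with higher synergy 6 introns and 28.6 kb, and all genes tested 9 introns and 29.99 kb. Among the 164 genes without an intron, 26.8% had a higher and 4.27% a lower interaction. Higher interactions became less frequent with each bin of introns, to 14.2% of the 1283 genes with over 20 introns, and lower ones more frequent, to 27.1%. The median knockdown effect was 0.31 in DMSO and 0.47 in 4OHT for genes without an intron, and −0.29 and −0.39 for genes with over 20. Levels are relative to the library total, so a fall of intron-rich genes and a rise of intron-poor genes cannot be told apart here.

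The interaction was called in a far smaller share of splicing tests than of genes. The 2 shares come from different tests, and a tested exon value rested on a median of 81 reads. The splicing rule also asks for a minimum size, without which 74 exons were called. The shares therefore do not tell whether splicing or gene level depended more on treatment. Inclusion was measured as the per cent spliced-in index (PSI), the share of reads that include an exon or intron, and the interaction as a difference of differences in percentage points. Exons and introns counted as called where limma's test on the logit scale gave an adjusted p under 0.05 and the difference was at least 5 points. The SE printed with an interaction in points comes from a separate fit on PSI in points, not from that test. Of 7673 cassette exons 45 were called (0.586%), 41 with lower (0.534%) and 4 with higher inclusion (0.0521%), and of 5248 introns 1 was called (0.0191%). By class, 35 exons were synergistic, 7 antagonistic and 1 a reversal, and 2 (in CLTC and GOLGA2) were not sorted. Over all exons tested the median interaction was −0.48 points, and over all introns 0.53 points. At an unadjusted p under 0.05 there were 681 exons lower and 262 higher, and 87 introns lower and 406 higher. The number of called exons depended on the fit. With a variance for each group, an alternative added after seeing the data, 35 were called and 26 of them were among the 45, while 2 were called with siNT1 and 1 with siNT2 as the only control, and 258 with limma on PSI in percent.

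The sequences below are of the named exons that were matched to the human genome GRCh37 and to a coding exon of GENCODE. They are read 5′ to 3′ on the strand of the gene. Each is shown because the knockdown effect on its inclusion was called different between treatments in the main fit. Many of these calls were lost under alternatives, as given with each exon. Capitals mark the exon, whole where it has at most 100 bases and followed by 20 bases of intron, and otherwise its first 40 bases. The 40 bases in lower case before it hold the 3′ splice site. They lie at chr1:201754398-201754499 (NAV1), chr15:70976746-70976825 (UACA), chr13:42042872-42042994 (RGCC), chr19:7970653-7970760 (MAP2K7), chr1:167984979-167985058 (DCAF6), chr4:170638903-170639038 (CLCN3), chr12:121001573-121001652 (RNF10) and chr1:171558468-171558547 (PRRC2C), with UACA on the minus strand and the others on the plus strand. The exons in FZR1, WSB1 and NABP1 and the intron in ZNF266 are named only.
NAV1: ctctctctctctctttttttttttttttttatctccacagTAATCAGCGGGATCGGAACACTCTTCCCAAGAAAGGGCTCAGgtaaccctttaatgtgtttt
UACA: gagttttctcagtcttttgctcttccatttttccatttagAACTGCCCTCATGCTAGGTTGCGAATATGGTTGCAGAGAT
RGCC: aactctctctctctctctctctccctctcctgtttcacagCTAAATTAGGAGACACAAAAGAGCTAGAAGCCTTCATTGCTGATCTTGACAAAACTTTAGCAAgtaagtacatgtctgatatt
MAP2K7: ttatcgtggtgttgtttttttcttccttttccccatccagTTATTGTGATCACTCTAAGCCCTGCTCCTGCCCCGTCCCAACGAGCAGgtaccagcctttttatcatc
DCAF6: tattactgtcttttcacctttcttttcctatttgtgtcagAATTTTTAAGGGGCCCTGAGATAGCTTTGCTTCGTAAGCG
CLCN3: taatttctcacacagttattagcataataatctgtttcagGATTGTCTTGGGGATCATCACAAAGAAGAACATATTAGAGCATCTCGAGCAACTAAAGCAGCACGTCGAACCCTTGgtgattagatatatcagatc
RNF10: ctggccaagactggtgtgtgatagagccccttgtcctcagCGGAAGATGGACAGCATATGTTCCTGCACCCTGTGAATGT
PRRC2C: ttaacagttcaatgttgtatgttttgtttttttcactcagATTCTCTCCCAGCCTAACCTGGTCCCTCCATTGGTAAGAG

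Synergy with lower inclusion held 34 exons, for which a median of 100% inclusion in both siNT groups stood beside 95.9% in DMSO siSF3B1 and 81.0% in 4OHT siSF3B1. In 28 of the 34, both siNT means were at 95% or more. In DMSO siNT alone 82.4% of the 34 were at 95% or more, near the 77.9% of all exons tested. The difference of differences ran from −5.07 to −32.0 points. In 29 the knockdown and control libraries were apart in 4OHT, but in only 8 were the knockdown libraries of the 2 treatments apart from each other. These 2 counts were not taken over all exons tested, so they only describe the 34. For 15 the effect in DMSO was itself called (26.8% of all exons tested).

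A 42-base exon of NAV1, a protein that binds microtubules, had the largest such change. Its lowest, median and highest PSI was 97.05%, 100% and 100% in DMSO siNT, 65.1%, 79.4% and 95.7% in DMSO siSF3B1, 98.01%, 100% and 100% in 4OHT siNT and 35.04%, 45.7% and 62.3% in 4OHT siSF3B1. Skipping was seen in all knockdown libraries, and those of 4OHT lay below those of DMSO without overlap. The interaction was −32.01 points (SE 3.82, adjusted p = 0.0155), from −36.3 to −27.8 over the 4 pairings of siRNAs, with a median of 48.5 to 114 reads behind a value in the 4 groups. NAV1 was also called at gene level, with an interaction of −0.43.

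In UACA, which encodes a protein with ankyrin repeats and coiled coils, a 182-base exon had a median PSI of 94.6% and 77.1% in DMSO (siNT and siSF3B1) and of 95.9% and 58.4% in 4OHT. Its interaction was −24.6 points (SE 5.74, adjusted p = 0.0282). A 63-base exon of RGCC, a regulator of the cell cycle listed as C13orf15, had a median PSI of 100% in both siNT groups. Its lowest, median and highest PSI was 71.4%, 82.7% and 95.3% in DMSO siSF3B1 and 36.4%, 67.96% and 76.9% in 4OHT siSF3B1, with overlap between these groups (interaction −20.7 points, SE 4.51, adjusted p = 0.0139). None of these 3 calls was stable. With either siNT alone no synergistic exon was called. The NAV1 call was also lost with a variance for each group and without replicate 1, 2 or 3, the RGCC call with only the 4 groups and without replicate 1, and the UACA call under 9 alternatives, including each replicate left out. The exons in NAV1 and RGCC have a multiple of 3 bases, so that skipping keeps the reading frame, whereas that of UACA does not.

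A further 4 exons of this class were chosen after their values were seen. In HSPA5, the chaperone BiP, an exon had a PSI of 100% in all siNT libraries, of 84.9% to 94.2% in DMSO siSF3B1 and of 75.5% to 84.7% in 4OHT siSF3B1, with medians of 1114 to 1580 reads. Its interaction was −9.48 points (SE 1.47, adjusted p = 0.0220). In SAT1, the enzyme that acetylates spermidine, an 84-base exon had medians of 75.99% in DMSO siSF3B1 and 57.95% in 4OHT siSF3B1, without overlap (interaction −18.02 points, SE 2.30, adjusted p = 0.0181). In XRN2, a nuclear exonuclease of transcription termination, the medians were 95.3% and 79.2% in the same groups (interaction −14.5 points, SE 1.90, adjusted p = 0.00402). In SENP6, a protease of SUMO chains, they were 90.1% and 70.5%, with overlap between these groups (interaction −20.3 points, SE 3.25, adjusted p = 0.00169). None of these 4 exons was called with either siNT alone, and whether their calls held under the other alternatives is not given here.

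The single exon with higher inclusion in synergy was a 45-base exon of FZR1, an activator of the anaphase-promoting complex. It was at 0 in all 4OHT siNT libraries and at most 2.44% in DMSO siNT, and ranged from 0% to 6.98% in DMSO siSF3B1 and from 2.56% to 16.7% in 4OHT siSF3B1 (interaction 7.33 points, SE 1.81, adjusted p = 0.0369). This call was lost under 10 alternatives, including leaving out replicate 1, 2 or 3.

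Among the antagonistic exons 3 had a higher interaction. In WSB1, a substrate receptor of a ubiquitin ligase, a 176-base exon had a lowest, median and highest PSI of 35.9%, 54.3% and 67.2% in DMSO siNT and 0%, 0.695% and 3.96% in DMSO siSF3B1, against 6.51%, 8.85% and 13.8% in 4OHT siNT and 0%, 0% and 0.740% in 4OHT siSF3B1. The exon was almost lost after knockdown in both treatments, from a high level in DMSO and a low one in 4OHT. The interaction was 43.3 points (SE 3.84, adjusted p = 0.00126), and WSB1 was also antagonistic at gene level (0.83). A 104-base exon of NABP1, which binds single-stranded DNA and is listed as OBFC2A, had medians of 12.2% and 1.80% in DMSO and of 0.690% and 0.580% in 4OHT (interaction 10.98 points, SE 0.908, adjusted p = 1.96e-06). A 134-base exon of RNF10, a ring finger protein, had medians of 100% and 95.2% in DMSO and of 97.03% and 97.7% in 4OHT, with overlap of knockdown and control in each treatment (interaction 7.33 points, SE 2.18, adjusted p = 0.0399). The NABP1 call held under every alternative that gave it a value, and the WSB1 exon lost its call with siNT2 alone. Both exons were already low in 4OHT siNT, and whether this low level shaped the interactions was not tested. Their 4OHT effects in siNT were −12.2 points (NABP1) and −44.1 points (WSB1), near their interactions in size. Effect and interaction use the same siNT libraries, so with knockdown levels near 0 they must be similar in size. The RNF10 call was lost under 11 alternatives, including the replicate block and leaving out replicate 1, 2 or 3.

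In the other direction, a 48-base exon of MAP2K7, the kinase that activates JNK, had a lowest, median and highest PSI of 56.2%, 71.8% and 79.4% in DMSO siNT, 80.95%, 89.2% and 90.6% in DMSO siSF3B1, 66.9%, 81.3% and 88.9% in 4OHT siNT and 74.05%, 75.9% and 87.7% in 4OHT siSF3B1. The groups were apart in DMSO and overlapped in 4OHT, and the interaction was −19.4 points (SE 4.54, adjusted p = 0.0109). A 171-base exon of DCAF6, a substrate receptor of a ubiquitin ligase, rose by 11.3 points in DMSO and had an effect of −3.35 points in 4OHT (adjusted p = 0.220). A 76-base exon of CLCN3, a chloride and proton exchanger, rose by 11.5 points in DMSO and had an effect of 1.01 points in 4OHT (adjusted p = 0.644). The reversal, a 237-base exon of PRRC2C (listed as BAT2D1), had medians of 5.96% and 14.6% in DMSO and of 12.9% and 8.67% in 4OHT (interaction −13.5 points, SE 2.25, adjusted p = 0.0271), and knockdown and control overlapped in each treatment. Besides either siNT alone, the MAP2K7 call was lost with a variance for each group and without replicate 2, and the CLCN3 call without replicate 4. The DCAF6 call was lost under 10 alternatives, including the replicate block and each replicate left out, and the PRRC2C call under 8, including leaving out replicate 1, 2 or 3.

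The called intron was a 90-base intron of ZNF266, a zinc finger gene, at chr19:9435194-9435283 in GRCh38. Its lowest, median and highest retention was 0%, 0.820% and 3.45% in DMSO siNT, 0%, 3.28% and 8.57% in DMSO siSF3B1, 0%, 0% and 1.30% in 4OHT siNT and 4.17%, 11.8% and 19.2% in 4OHT siSF3B1. Knockdown and control overlapped in DMSO and were apart in 4OHT. The interaction was 9.25 points (SE 1.70, adjusted p = 0.00710), and at gene level ZNF266 was a reversal with an interaction of 0.64. The intron was not called under 6 alternatives, among them either siNT alone, only the 4 groups, and without replicate 1 or 4.

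The 45 exons were set beside all tested exons in structure, as a description. Their median length was 104 bases, against 105 for all, and 22 were a multiple of 3 in length (48.9%, against 42.3%). The median intron before the exon was 1192 bases against 1736, the median intron after it 1128 against 1748, and the median GC content of the exon 45.2% against 49.4%. Pyrimidines made up a median of 67.6% against 64.9% of the bases before the exon, but 63.5% for the 34 exons of lower synergy, below all tested exons, and 70.3% for the 7 antagonistic ones. The exons lay in 43 genes, of which 14 also had a called interaction at gene level (32.6%, against 37.8% of all genes), 12 lower and 2 higher.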

How the data were processed

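RNA-seq was read from 48 libraries, 8 for each of 6 groups, and 32 of them enter the contrast. The authors aligned reads and counted them per gene with vast-tools on hg19, and the deposited count table holds those counts without normalisation. They also deposited cRPKM values (a corrected RPKM, not used here), a normalised, filtered table of scaled signal per gene (CPM after edgeR and limma steps, per the submitters' processing notes), and inclusion levels in percent (PSI) with a quality score for each event and library. Replicates were not pooled. Genes with at least 10000 counts in total over 48 libraries (9991 of 19847) were tested with edgeR 4.0.16 (R 4.3.3): TMM, a mean for each of 6 groups, quasi-likelihood test, Benjamini-Hochberg adjustment. Exons and introns scored VLOW or better by vast-tools in every library and with a PSI range of at least 5 points (introns also with a balance p of at least 0.05) were tested with limma 3.58.1 on the logit of 0.01 plus 0.98 times PSI as a share. DESeq2 1.42.0 was an alternative.

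Named by rule were the 6 genes (3 for reversal) with the largest interaction per class and sign, with a mean of at least 1 CPM in each group and 1 sign in all 4 pairings of siRNAs, up to 5 members of a gene list, and the 3 exons of each class and sign. Members and lists were chosen with earlier results of these data known. Event coordinates in the files are on GRCh38; sequences were read from GRCh37 through the GENCODE annotation lifted to it. No 2 libraries of the same siRNA and treatment agreed within sampling noise (48 pairs of counts). Interactions were tested on simulated counts and PSI values with known changes. Replicate numbers did not pair the libraries.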

Additional observations from a re-analysis of the deposited data

Results flagged for a closer look

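The knockdown effect differed between DMSO and 4OHT, by the test of the interaction itself, for 3781 genes, 45 exons and 1 intron, which are the results described above.

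A library lay far from the other 7 of its group in 10 of 176 groups examined (5.68%) by Dixon's gap-to-range ratio at its 95% critical value, where chance gives about 1 in 20. Among genes, TCF21 was low at 5.12 CPM in 4OHT siNT1 replicate 1 and GPSM2 high at 3.13 CPM in 4OHT siSF3B1-16 replicate 3. PRC1 was high at 4.88 CPM in 4OHT siNT1 replicate 2 and low at 1.31 CPM in 4OHT siSF3B1-16 replicate 2. Among exons, NAV1 was at 97.1% in DMSO siNT2 replicate 1 where the others were at 100%, MAP2K7 at 87.7% in 4OHT siSF3B1-16 replicate 2, CLCN3 at 11.3% in DMSO siSF3B1-16 replicate 2, WSB1 at 3.96% in DMSO siSF3B1-13 replicate 2 and PRRC2C at 0% in 4OHT siSF3B1-13 replicate 3. The ZNF266 intron was at 1.30% in 4OHT siNT2 replicate 3, where the other 7 libraries were at 0.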

How the results depend on the processing

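The number of called genes moved by over 1.5 times under few alternatives. With at least 1.5-fold required, 955 genes were called, of which 536 were synergistic, 210 antagonistic and 205 reversals. With siNT1 alone 2352 were called (1466 synergistic, 662 antagonistic, 208 reversals), and with siNT2 alone the reversals were 234. With only the 4 groups 5607 genes were called (1838 antagonistic, 579 reversals), and with a variance for each group 5431 (1740 and 567). With 1 group per siRNA 4883 were called, with 538 reversals. Leaving out replicate 1, 2, 3 or 4 gave 2617 to 3758 called genes (235 to 342 reversals, 1603 to 2280 synergistic, 767 to 1115 antagonistic). Without the 4OHT siRBM39-08 replicate 4 library, which stands apart and enters the spread, 4692 genes (463 reversals) and 48 exons (38 synergistic) were called. DESeq2 called 3903 genes, 3778 of them among the 3781. The replicate block gave 3679 genes, 40 exons and 1 intron. Pairing was examined on what was left after the mean of each siRNA and treatment was subtracted. There, same-numbered libraries had a median correlation of 0.00767 and other pairs 0.00222. By mean correlation, 11 of 32 libraries were most like those of their own number, so this pairing was not used.

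Exon calls depended strongly on the fit. With at least 10 points there were 25 exons (19 synergistic, 0 reversals) and 0 introns, and with no minimum difference 74 exons (21 antagonistic, 2 reversals) and 2 introns. On PSI in percent there were 258 exons (207 synergistic, 45 antagonistic) and 39 introns, and on a plain logit of PSI from 1 to 99 there were 17 exons (12 synergistic, 0 reversals) and 4 introns, of which 7 exons and 0 introns were among those called. A score of at least LOW left 22 synergistic exons and gave 5 introns, no range filter 0 reversals and 4 introns, a variance for each group 0 reversals and 3 introns, and only the 4 groups 0 introns. With siNT1 alone 2 exons were called (0 synergistic, 2 antagonistic, 0 reversals) and 0 introns, and with siNT2 alone 1 exon (0 synergistic, 1 antagonistic, 0 reversals) and 0 introns. With siSF3B1-13 alone there were 166 exons (129 synergistic, 32 antagonistic) and 19 introns, and with siSF3B1-16 alone 82 exons (61 synergistic, 18 antagonistic, 0 reversals) and 5 introns. Leaving out replicates gave 21 to 35 exons (14 to 26 synergistic, 0 to 1 reversal) and 0 to 3 introns. The cause of these shifts was not tested.

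On the linear CPM scale the difference of differences had the other sign for CLDN11 (217 CPM), ANGPTL4 (0.981), SLC16A6 (47.9), SERPINB2 (89.0), SERPINB7 (0.421), SF3B1 (25.1), RELB (−3.004), TNFAIP3 (−2.23), UHRF1 (3.40), PARP9 (5.13), SAMD9L (0.365), DDX42 (3.20) and IL1B (824). Depth is a limit for the exons, where the lowest number of reads behind a value of a called event was 15.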
